A study of Mus musculus with 12 samples.

Results

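Of the 23893 genes in the deposited count table, 10 were chosen by symbol as classical and atypical cadherins made by cortical neuron cultures: Cdh2, Cdh4, Cdh6, Cdh8, Cdh9, Cdh10, Cdh11, Cdh12, Cdh13 and Cdh18. The rule used the symbols alone and no measured value, and all 10 were present in each of the 12 libraries. The cultures came from the cortex of mouse embryos at embryonic day 13.5 to 15.5, strain C57BL6 per the labels, and were given a lentivirus on day 3 in vitro (DIV 3). In WT cultures the virus made the red fluorescent protein tdTomato, and in Top1 cKO cultures it made tdTomato together with CRE, the recombinase that cuts out the floxed exon of Top1, the gene of the DNA topoisomerase TOP1. Both viruses used the CaMKIIα promoter, which is active in excitatory neurons, and reached about 85 to 90% of cells, so glia and the remaining neurons of a Top1 cKO culture should keep the gene. The labels call the control genotype wild-type, whereas the methods of the study describe Top1 fl/fl cultures in both arms. At DIV 15 the cells received 300 nM topotecan or vehicle, both at 0.003% DMSO, and RNA was taken 3 days later. Topotecan traps TOP1 on the DNA strand it has cut. The 4 groups, of 3 libraries each, are the vehicle groups WT-Veh and Top1 cKO-Veh and the drug groups WT-Topot and Top1 cKO-Topot.

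Cadherins are calcium-dependent adhesion proteins that hold neighbouring cells together through contacts between their extracellular domains. The cytoplasmic tail of a classical cadherin binds beta-catenin and p120-family catenins, and alpha-catenin ties this complex to actin. In cortex they mark layers, areas and sets of synapses. Cdh2 (N-cadherin), which is abundant at excitatory synapses, and Cdh4 (R-cadherin) are the 2 type I members. The 7 type II members are Cdh6, Cdh8, Cdh9, Cdh10, Cdh11, Cdh12 and Cdh18, and type II cadherins bind one another in overlapping sets and are spread over different neuron classes. Cdh13 (T-cadherin) is the odd one out: it has no transmembrane or cytoplasmic part and is held in the membrane by a GPI anchor.

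These genes are long and mostly intron. On the mm9 assembly (NCBIM37, GENCODE vM1 annotation), Cdh13 spans 1041 kb on chromosome 8 (120807633 to 121848821, plus strand), Cdh18 spans 925 kb on chromosome 15 (22478777 to 23404173, plus) and Cdh12 spans 478 kb on chromosome 15 (21041207 to 21519288, plus). Cdh4 covers 457 kb of chromosome 2 (179177136 to 179634078, plus) and Cdh8 covers 392 kb of chromosome 8 (101548371 to 101940371, minus). The shorter members are Cdh10 with 195 kb on chromosome 15 (18748702 to 18943990, plus), Cdh11 with 152 kb on chromosome 8 (105156895 to 105309011, minus), Cdh6 with 139 kb on chromosome 15 (12963955 to 13103394, minus) and Cdh9 with 78.7 kb on chromosome 15 (16707856 to 16786522, plus). With Cdh2 (220 kb), 9 of 10 exceed 100 kb in this annotation, and exons make up between 0.492% of the span in Cdh18 and 3.68% in Cdh9. The longest single intron, of 335 kb, is in Cdh4. The 5 members on chromosome 15 follow each other in the order Cdh6, Cdh9, Cdh10, Cdh12, Cdh18 across a gene desert. The gaps between them measure 3604, 1962, 2097 and 959.5 kb, and the only annotated protein-coding gene in these gaps is Acot10, between Cdh10 and Cdh12.

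The stretch just before the transcription start is shown for 3 type II members, since Cdh8 and Cdh12 were called lower with topotecan while Cdh9, on chromosome 15 like Cdh12, was not. The sequences are the 250 bases before the start given by RefSeq on GRCm38.p6, a later build than that of the counts, and are read in the direction of the gene. RefSeq promoters were matched for 6 of the 10 members, and those of Cdh2, Cdh4, Cdh11 and Cdh13 are not shown. Capitals mark a GC box (GGGCGG), searched on both strands beside the TATA box (TATAAA), the E-box (CACGTG) and the cAMP response element (TGACGTCA).
Cdh8, chr8:99416472-99416721, minus strand: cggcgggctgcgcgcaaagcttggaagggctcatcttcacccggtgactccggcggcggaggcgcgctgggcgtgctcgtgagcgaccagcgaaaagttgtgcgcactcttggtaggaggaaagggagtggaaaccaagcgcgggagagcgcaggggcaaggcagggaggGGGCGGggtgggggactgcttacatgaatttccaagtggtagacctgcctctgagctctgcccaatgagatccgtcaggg
Cdh12, chr15:21111202-21111451, plus strand: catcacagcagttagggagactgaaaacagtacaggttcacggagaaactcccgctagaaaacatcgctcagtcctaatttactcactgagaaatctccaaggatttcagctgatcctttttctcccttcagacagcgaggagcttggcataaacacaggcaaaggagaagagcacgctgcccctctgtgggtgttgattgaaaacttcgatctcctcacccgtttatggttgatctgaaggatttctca
Cdh9, chr15:16728665-16728914, plus strand: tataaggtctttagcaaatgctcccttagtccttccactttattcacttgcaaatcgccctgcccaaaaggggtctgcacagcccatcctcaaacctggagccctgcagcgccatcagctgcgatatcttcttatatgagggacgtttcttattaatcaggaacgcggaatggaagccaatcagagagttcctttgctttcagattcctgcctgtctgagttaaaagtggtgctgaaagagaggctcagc
The Cdh8 window holds 1 GC box, 20 CpG dinucleotides and 64.4% G and C, whereas the Cdh12 window holds none of the 4 motifs, 7 CpG and 46.8% G and C. The Cdh9 window also holds none of the 4 motifs, with 6 CpG and 48.0% G and C, so the Cdh12 and Cdh9 windows resemble each other in these measures. Over all 32851 windows of the same length the GC box occurs in 32.7%, the TATA box in 12.4%, the E-box in 6.02% and the cAMP response element in 1.55%, and the median CpG count is 6 with quartiles of 2 and 16. Of the other matched members, Cdh6 has 2 overlapping GC boxes and Cdh10 and Cdh18 have none of the motifs.

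Library totals ranged from 1730164 to 4583777 counts. Levels are given as CPM, counts divided by these totals after TMM scaling and set to a common size. A gene is called changed at an adjusted p under 0.01 (two-sided quasi-likelihood test of edgeR, Benjamini-Hochberg adjusted over the 23893 genes). This test does not pair libraries by replicate number, whereas the fit with the replicate block does. Top1 measured 117 to 163 CPM in the 6 WT libraries and 27.1 to 44.0 CPM in the 6 Top1 cKO libraries, and was lower in Top1 cKO-Veh than in WT-Veh, with a log2 fold change of −1.98 ± 0.23 (SE, adjusted p = 0.00119). The 7 markers of excitatory neurons summed to 2546 to 2792 CPM in WT-Veh and, higher in every library, to 2889 to 3322 CPM in WT-Topot. There 1 of the 7 (Tbr1) was called higher, against 0.682% of all genes, and 3 were with the replicate block, against 3.24%. With the deletion the 7 markers summed to 2721 to 2770 CPM under vehicle and, lower in every library, to 2338 to 2642 CPM under topotecan. Between these deletion groups 0 of the 7 passed the test. With the block 0 were lower and 1 higher, against 1.74% and 0.858% of all genes. Against WT-Topot, 1 of the 7 was called lower in Top1 cKO-Topot (1.03% of all genes) and 3 with the block (4.08%). The 5 interneuron markers summed to 772, 1694 and 1495 CPM in WT-Veh and 524, 762 and 955 CPM in WT-Topot, with a median log2 fold change of −0.99. Of the 5, 0 passed the test. With the block 3 were lower (Gad1, Gad2 and Sst), against 5% of all genes, and 1 higher (Dlx1), against 3.24%. With the deletion the 5 interneuron markers summed to 1160 to 1360 CPM under vehicle and 874 to 1292 CPM under topotecan. Markers of microglia summed to at most 12.3 CPM and those of endothelial cells to at most 3.51 CPM. The 5 oligodendrocyte lineage markers summed to 93.3 to 151 CPM in WT-Veh and 123 to 145 CPM in WT-Topot. Their median log2 fold change was 0.93, with 2 of the 5 negative. None passed the test, and with the block 1 was higher (3.24% of all genes) and 1 lower (5%). With the deletion they summed to 138 to 188 CPM under vehicle and 131 to 293 CPM under topotecan. The 5 astrocyte markers went from 2374, 1063 and 886 CPM (summed) in WT-Veh to 559, 291 and 271 CPM in WT-Topot. In the deletion groups they were at 2657, 1036 and 809 CPM with vehicle and 903, 611 and 270 CPM with topotecan. The summed astrocyte markers were thus lower in every WT-Topot library than in every WT-Veh library, in the direction of the cadherins. Of the 5, 2 passed the test, against 2.04% of all genes called lower, and 4 with the replicate block, against 5%. The part of excitatory neuron, interneuron, astrocyte and oligodendrocyte lineage markers in the cadherin values was not tested. Fibroblast and mural cell markers were highest in replicate 1 of each group (266, 114, 188 and 90.0 CPM) and between 20.3 and 62.1 CPM elsewhere. In RNA from whole cultures, fewer cells of a type and less RNA per cell cannot be told apart.

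To compare genes with each other, counts were divided by exon length (RPKM, over the union of annotated exons). In WT-Veh the order was Cdh11 (16.8 ± 2.30 RPKM, SD, n = 3), Cdh2 (13.4 ± 2.11), Cdh10 (12.9 ± 3.44), Cdh8 (9.98 ± 1.88), Cdh13 (9.58 ± 1.78), Cdh4 (7.41 ± 2.32), Cdh12 (5.78 ± 2.43), Cdh6 (5.48 ± 2.83), Cdh18 (3.62 ± 2.40) and Cdh9 (3.24 ± 1.44). Every pair of neighbours in this order overlapped between libraries. The order is that of the means, and the libraries do not settle which member was highest. The order depends on the exon length used, since counts were made over RefSeq exons and the lengths come from GENCODE.

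**Figure D1:**
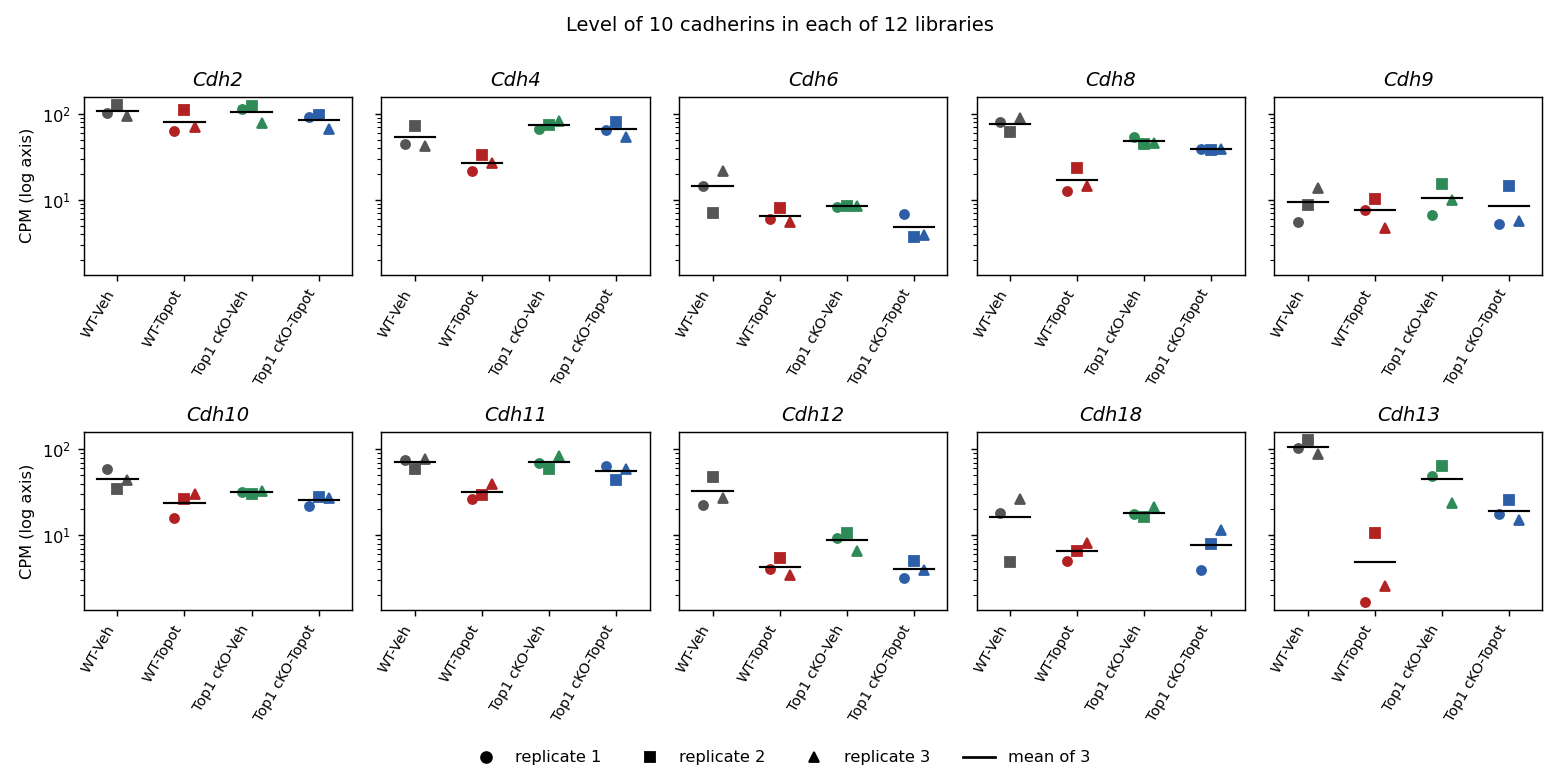
Level of each cadherin in CPM (vertical, log axis) in the 4 groups (horizontal), with one point per library, a symbol per replicate number and a bar at the mean of 3. Cdh13, Cdh12, Cdh8, Cdh11, Cdh4 and Cdh10 lie lower in all 3 WT-Topot libraries than in any WT-Veh library. Cdh13 ranges from 1.68 to 10.6 CPM in WT-Topot against 88.7 to 128 CPM in WT-Veh.

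The first comparison asks what topotecan did to the cadherins of WT cells. All 10 log2 fold changes were negative, with a median of −1.12, against 0.03 over all genes that averaged 1 CPM or more (expressed genes) and −0.42 over those longer than 100 kb. Cdh13, Cdh12, Cdh8 and Cdh11 fell past the test, which is 4 of 10 where 2.04% of all genes and 18% of expressed genes over 100 kb were called lower, and 0 were called higher, where 0.682% of all genes were. With the replicate number as a block, Cdh4, Cdh10 and Cdh18 were called lower as well, 7 of 10 against 5% of all genes and 34.1% of those over 100 kb. In 6 members every WT-Topot library lay below every WT-Veh library, which 13.2% of expressed genes of any length showed. For such counts, and for those with no adjustment of p, the share among genes over 100 kb was not taken.

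Cdh13, the GPI-anchored member, had the largest change of the 10. It measured 104, 128 and 88.7 CPM in WT-Veh and 1.68, 10.6 and 2.57 CPM in WT-Topot, replicates 1 to 3. The groups were far apart, and replicate 2 kept the most transcript with 37 reads, against 5 and 6 reads in the others. The log2 fold change was −4.34 ± 0.39 (SE, adjusted p = 7.4e-07), which leaves 4.95% of the WT-Veh level. Without WT-Topot replicate 2 it was −5.65 and without WT-Topot replicate 1 it was −3.92.

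Among the type II members, Cdh12, a cadherin found mainly in brain, came next. Its levels were 22.5, 48.2 and 27.1 CPM in WT-Veh and 4.02, 5.44 and 3.43 CPM in WT-Topot, a log2 fold change of −2.88 ± 0.36 (adjusted p = 3.11e-05). Cdh8, which is expressed in restricted areas and layers of the cortex, measured 80.5, 61.4 and 89.8 CPM in WT-Veh and 12.7, 23.2 and 14.6 CPM in WT-Topot, a change of −2.17 ± 0.25 (adjusted p = 1.38e-05). WT-Veh replicate 2 was the highest of its group for Cdh12 and the lowest for Cdh8, and neither set of libraries overlapped with WT-Topot. Cdh11 (OB-cadherin), first known from bone-forming cells, measured 75.5, 59.6 and 77.2 CPM in WT-Veh and 26.1, 29.8 and 39.8 CPM in WT-Topot. Its change of −1.15 ± 0.22 passed the test (adjusted p = 0.00309) and did not pass it without WT-Topot replicate 1 (adjusted p = 0.0130) or WT-Topot replicate 2 (adjusted p = 0.0149).

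The other type II members did not pass the test, and WT-Veh replicate 2 was the lowest WT-Veh library in 3 of them. Cdh18 measured 18.1, 4.82 and 26.5 CPM in WT-Veh and 5.03, 6.58 and 8.14 CPM in WT-Topot, a log2 fold change of −1.30 ± 0.45 (adjusted p = 0.138). Replicate 2 of WT-Veh was below every WT-Topot library, and without it the change was −1.75 (adjusted p = 0.00411). With the replicate block the adjusted p was 0.00402. In Cdh6 that library was likewise low, with 14.3, 7.01 and 21.9 CPM in WT-Veh and 6.03, 8.01 and 5.57 CPM in WT-Topot (−1.10 ± 0.40, adjusted p = 0.164). Cdh10 measured 58.5, 34.2 and 44.3 CPM in WT-Veh and 15.8, 26.3 and 30.0 CPM in WT-Topot, without overlap (−0.93 ± 0.27, adjusted p = 0.0571, and 3.46e-04 with the replicate block). Cdh9, which is known from synapses of the hippocampal mossy fibre pathway, overlapped between the groups, at 5.56, 8.77 and 13.8 CPM in WT-Veh and 7.71, 10.3 and 4.71 CPM in WT-Topot (−0.24 ± 0.42, adjusted p = 1). The interval of 2 SE around the Cdh9 change runs from −1.07 to 0.60.

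Neither type I member passed the test. Cdh4 measured 45.1, 72.8 and 42.6 CPM in WT-Veh and 21.4, 32.9 and 27.0 CPM in WT-Topot, with no overlap and a change of −0.97 ± 0.26 (adjusted p = 0.0304). It was past the threshold with the replicate block (adjusted p = 4.16e-05), without WT-Veh replicate 1 (0.00662) and without WT-Veh replicate 3 (0.00216). Cdh2, on chromosome 18 (16747386 to 16967755, minus), measured 101, 128 and 95.6 CPM in WT-Veh and 63.3, 111 and 70.2 CPM in WT-Topot, where replicate 2 exceeded 2 of the 3 WT-Veh libraries (−0.40 ± 0.22, adjusted p = 0.502). Within the 3 replicate numbers the Cdh2 difference on the log2 scale ran from −0.68 to −0.20.

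**Figure D2:**
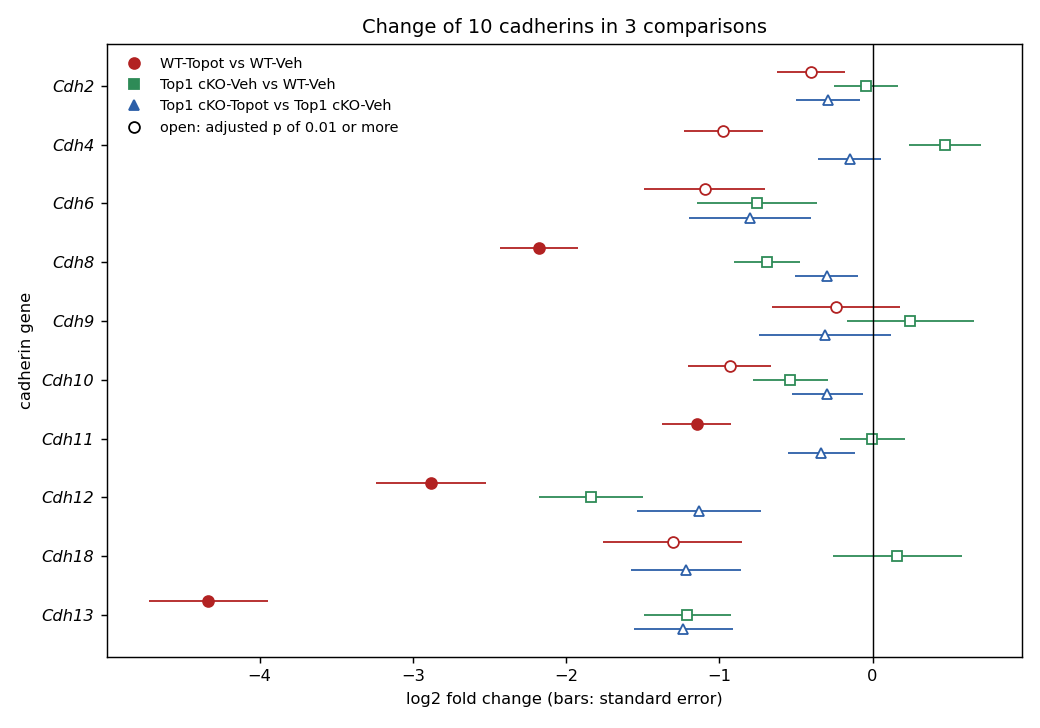
Log2 fold change (horizontal) of each cadherin (vertical) in 3 comparisons, with bars of 1 standard error, where filled symbols have an adjusted p under 0.01. Filled symbols occur for Cdh8, Cdh11, Cdh12 and Cdh13 with topotecan in WT cells only, and the points of Top1 deletion and of topotecan in Top1 cKO cells lie between −1.84 and 0.47.

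The change with topotecan was set beside gene span, since genes over 100 kb were called lower more often than the table as a whole. Across the 10 members, Spearman's rho between span and log2 fold change was −0.72, given as a description over genes that share the same libraries. For expressed genes, the median log2 fold change was 0.08 up to 100 kb, −0.21 from 100 to 200 kb, −0.85 from 200 to 500 kb and −2.11 above 500 kb. Cdh12 lay far down in its class: 0.161% of the 621 genes from 200 to 500 kb had a lower value. Cdh8 had 4.67% of the same class below it, Cdh11 had 4.93% of the 1157 genes from 100 to 200 kb below it and Cdh13 had 2.89% of the 173 genes above 500 kb below it. Cdh18, nearly as long as Cdh13 in this annotation, was on the other side of its class, with 73.4% of genes lower, and Cdh2 had 71.7% of its class lower. The spans are from GENCODE, the counts from RefSeq exons. The RefSeq window of Cdh12 (GRCm38.p6) ends at 21111451, against a GENCODE start of 21041207 (mm9). For Cdh18 (23036462 and 22478777) the gap is larger, which places its RefSeq start inside its GENCODE span. For Cdh9 (16728914 and 16707856) it is smaller, which places the RefSeq start before the span. The gap of Cdh12 was taken as the shift between the builds, being close to those of Cdh6 (13173676 and 13103394) and Cdh10 (18820328 and 18748702). The classes of Cdh18 and Cdh9, and rho, depend on the annotation. Cdh4 and Cdh12 have about the same span (457 and 478 kb), and their changes were −0.97 and −2.88.

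**Figure D3:**
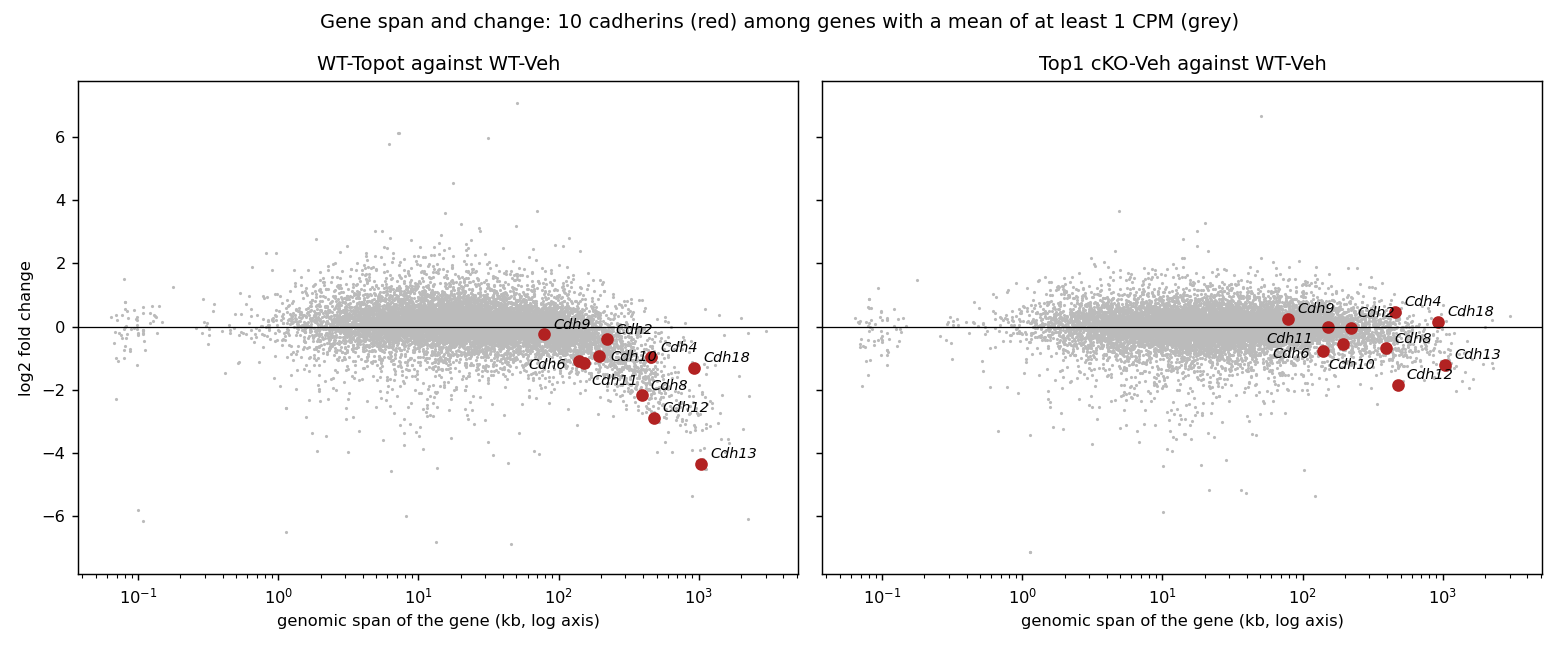
Log2 fold change (vertical) against genomic span in kb (horizontal, log axis) for expressed genes (grey, averaging 1 CPM or more) and the 10 cadherins (red), with topotecan in WT cells on the left and Top1 deletion on the right. With topotecan the long genes bend downwards and Cdh13 (−4.34) lies near their lower edge while Cdh18 (−1.30) stays higher, and after deletion Cdh12 (−1.84) is the lowest cadherin. Spans are from GENCODE, and the RefSeq start of Cdh18 lies inside its GENCODE span, so its place on the horizontal axis depends on the annotation.

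The second comparison asks what loss of Top1 itself did. In Top1 cKO-Veh against WT-Veh no member passed the test of edgeR in either direction, where 0.126% of all genes were called lower (0.561% of those over 100 kb) and 0.046% higher. With no adjustment of p (limit 0.05), 4 members were lower, against 4.82% of all genes, and 0 higher. DESeq2's Wald test called 2 lower, against 1.4% of the genes it tested and 4.18% of those over 100 kb. The exact test of edgeR called 1, against 0.54% and 2.91%, and the fit with the replicate block 3 (Cdh12, Cdh13 and Cdh8, against 2.95% of all genes and 11.8% of those over 100 kb). The median change was −0.29, against −0.01 over expressed genes, and 4 members lay below WT-Veh in every library (10.3% of genes).

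Cdh12 had the largest difference. Its Top1 cKO-Veh libraries measured 9.39, 10.8 and 6.51 CPM, all below the lowest WT-Veh library at 22.5 CPM, a change of −1.84 ± 0.34 (adjusted p = 0.0195). It passed the test without WT-Veh replicate 1 (0.00290), WT-Veh replicate 3 (0.00487) or Top1 cKO-Veh replicate 1 (0.00517), while without WT-Veh replicate 2, its highest library, the adjusted p was 0.116. Cdh13 measured 48.5, 64.1 and 24.0 CPM, again without overlap with WT-Veh (−1.21 ± 0.28, adjusted p = 0.0659, and 2.51e-13 with the replicate block). Cdh8 measured 53.2, 44.4 and 46.1 CPM (−0.69 ± 0.22, adjusted p = 0.220, and 0.00107 with the block). Cdh10 also lay below WT-Veh in every library, at 31.7, 30.2 and 33.1 CPM (−0.54 ± 0.24, adjusted p = 0.539).

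The other members showed no change past the test after deletion. Cdh11 was at 69.6, 58.4 and 84.7 CPM, a change of −0.00218 ± 0.213 with an interval of 2 SE from −0.43 to 0.42. Cdh2 was at 113, 122 and 79.2 CPM (−0.04 ± 0.21), and Cdh18 at 17.6, 16.3 and 21.0 CPM (0.16 ± 0.42). Cdh4 was at 66.1, 74.2 and 82.7 CPM, the highest group mean of the 4 for this gene, and its change of 0.47 ± 0.24 did not pass the test (adjusted p = 0.616). Cdh6 measured 8.21, 8.47 and 8.52 CPM (−0.76 ± 0.39) and Cdh9 measured 6.65, 15.1 and 10.02 CPM (0.25 ± 0.41), both with few reads.

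The third comparison asks whether topotecan acted on the cadherins once Top1 was deleted. In Top1 cKO-Topot against Top1 cKO-Veh all 10 changes were negative, from −1.23 to −0.15 with a median of −0.32 (0.00 over expressed genes), and edgeR called 0 of 10, where 0.00837% of all genes and 0.102% of those over 100 kb were called lower. With no adjustment of p 3 were lower (2.62% of all genes), and with the replicate block 2 were called (1.74% of all genes and 10.9% of those over 100 kb). In 5 members every library lay below those of Top1 cKO-Veh, against 6.54% of genes.
Cdh13 measured 17.5, 25.6 and 14.9 CPM in Top1 cKO-Topot, where its highest library exceeded the lowest of Top1 cKO-Veh (−1.23 ± 0.32, adjusted p = 0.297, 6.41e-08 with the block and 2.28e-04 without Top1 cKO-Veh replicate 3). Cdh18 measured 3.98, 7.97 and 11.4 CPM, below each Top1 cKO-Veh library (−1.22 ± 0.36, adjusted p = 0.508, and 2.51e-04 with the block). Cdh12 measured 3.19, 4.98 and 3.93 CPM from 8 to 15 reads (−1.13 ± 0.40, adjusted p = 0.801). The other 7 changes lay between −0.80 (Cdh6) and −0.15 (Cdh4), and that of Cdh8, at 39.0, 37.9 and 38.9 CPM, was −0.30 ± 0.21.

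Whether the topotecan effect differed between the genotypes was tested by the interaction term over all 12 libraries. Cdh13 and Cdh8 passed, 2 of 10 where 0.398% of all genes and 3.32% of those over 100 kb were called in that direction. For Cdh13 the effect in Top1 cKO cells was 3.09 ± 0.58 log2 units less negative than in WT cells (adjusted p = 0.00831), and for Cdh8 it was 1.87 ± 0.32 less negative (adjusted p = 0.00466). Each call was lost when certain single libraries were left out: the adjusted p of Cdh13 rose above 0.01 without WT-Veh replicate 2, WT-Topot replicates 1 or 3, or Top1 cKO-Topot replicates 1 or 2 (0.0132 to 0.0228), and that of Cdh8 without WT-Topot replicates 1 or 3, Top1 cKO-Veh replicate 2 or Top1 cKO-Topot replicate 1 (0.0123 to 0.0155). Cdh12 had a difference of 1.74 ± 0.53 (adjusted p = 0.157, and 0.00895 with the replicate block, where 2.44% of all genes and 18% of those over 100 kb were called). Within each replicate number the difference was positive for Cdh4, Cdh8, Cdh10, Cdh11, Cdh12 and Cdh13. For Cdh18, with uncalled changes of −1.30 in WT and −1.22 in Top1 cKO cells, the difference was 0.08 ± 0.63, with an interval of 2 SE from −1.18 to 1.35.

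**Figure D4:**
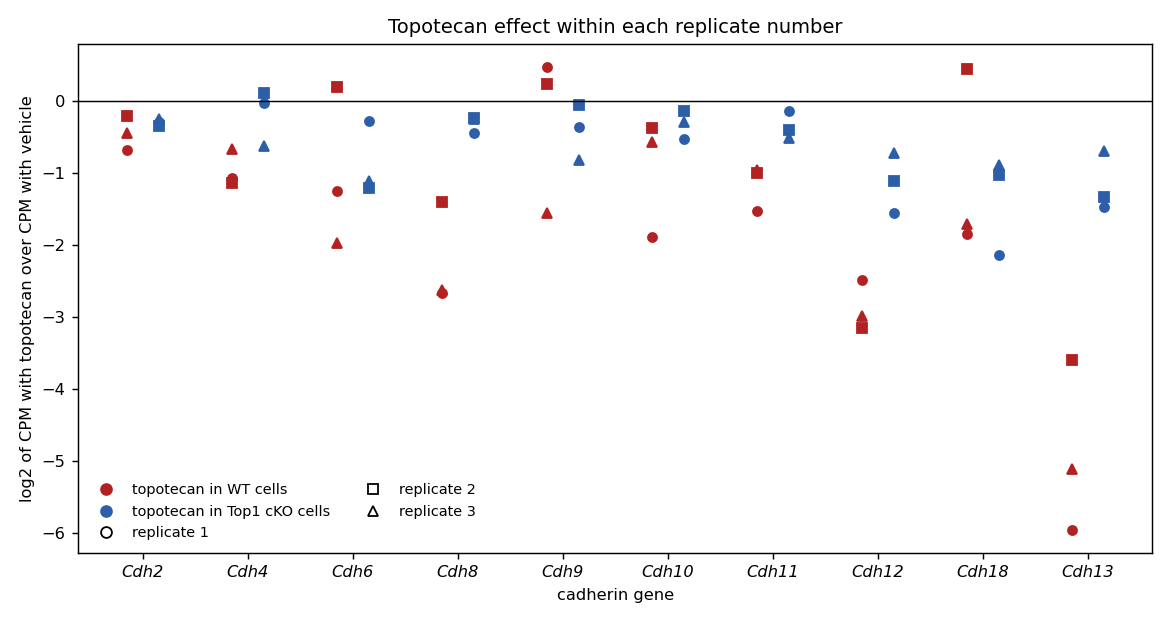
Log2 ratio of CPM with topotecan to CPM with vehicle (vertical) for each cadherin (horizontal) within each replicate number, in WT cells (red) and Top1 cKO cells (blue). For Cdh13 the WT points lie between −5.95 and −3.60 and the Top1 cKO points between −1.47 and −0.69. For Cdh2, Cdh6, Cdh9, Cdh10 and Cdh18 the colours overlap.

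With the drug present in both genotypes, Top1 cKO-Topot cells held more Cdh4 and Cdh8 than WT-Topot cells. Cdh4 was at 64.9, 80.0 and 53.8 CPM in Top1 cKO-Topot, 1.28 ± 0.23 above WT-Topot (adjusted p = 9.12e-04), and Cdh8 was 1.18 ± 0.26 above it (adjusted p = 0.00641). These are 2 of 10 called higher where 1.46% of all genes and 10.1% of those over 100 kb were (4 with the block, against 4.6% and 24.5%), and 4 members were higher in every library, against 13.4% of genes. Without Top1 cKO-Topot replicate 2 neither passed (0.0116 and 0.0226), and Cdh8 was also lost without WT-Topot replicate 1 (0.0245) or replicate 3 (0.0174). Cdh13 was 1.90 ± 0.44 higher (adjusted p = 0.0101, 8.47e-07 with the block, and past the threshold without WT-Topot replicate 1 or 2 or Top1 cKO-Topot replicate 1 or 3) and Cdh11, at 63.3, 44.2 and 59.5 CPM, was 0.80 ± 0.23 higher (adjusted p = 0.0406, and 6.60e-04 with the block). Cdh12 was low in both drug-treated groups, with a difference of −0.10 ± 0.46 and an interval of 2 SE from −1.03 to 0.83.

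Against WT-Veh, the Top1 cKO-Topot cells were lower in Cdh12, at −2.96 ± 0.38 (adjusted p = 4.79e-05) and in Cdh13, at −2.43 ± 0.25 (adjusted p = 3.81e-06), 2 of 10 where 1.21% of all genes and 8.74% of those over 100 kb were called lower, and 5 members lay below in every library (14.5% of expressed genes). With the block Cdh6, Cdh8 and Cdh10 were added (4.02% of all genes and 18.3% of those over 100 kb), and Cdh8 was at −0.97 ± 0.22 (adjusted p = 0.0128 without the block and 0.00908 without WT-Veh replicate 2). Set directly against Top1 cKO-Veh, the WT-Topot cells were lower in Cdh13 (−3.14 ± 0.47, adjusted p = 7.83e-04), Cdh8 (−1.49 ± 0.25, 0.00203), Cdh4 (−1.45 ± 0.22, 7.30e-04) and Cdh11 (−1.15 ± 0.22, 0.00633). That is 4 of 10 against 1.23% of all genes and 11.3% of those over 100 kb called lower, and 8 members lay lower in every library (12.3% of genes). Cdh8 was not past the threshold without WT-Topot replicate 1 (0.0109) or replicate 3 (0.0134), and Cdh11 was not without WT-Topot replicate 1 (0.0371) or replicate 2 (0.0180). Cdh18 was at −1.47 ± 0.32 (adjusted p = 0.0123, and 6.57e-05 with the block, which called 5 members against 4.8% of all genes and 33.4% of those over 100 kb). These comparisons share groups with each other and are not separate evidence.

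Summed over the 10 members, cadherin transcript per exon length was 88.2 ± 3.73 RPKM in WT-Veh and 38.1 ± 7.86 RPKM in WT-Topot (SD, n = 3). With Top1 deleted the sum was 71.8 ± 1.26 RPKM under vehicle and 54.0 ± 3.55 RPKM under topotecan. Between the WT groups the make-up of the sum differed, which was not tested: Cdh13 was 10.9 ± 2.49% of it in WT-Veh and 1.06 ± 0.88% in WT-Topot, while Cdh2 was 15.3 ± 3.06% and 26.2 ± 3.73%. Cdh2 took the first place in WT-Topot, at 10.1 ± 3.18 RPKM, ahead of Cdh11 at 7.57 ± 1.68, and these overlapped between libraries. Cdh13 was the lowest of the 10 there, at 0.443 ± 0.440 RPKM, overlapping with Cdh12 at 0.762 ± 0.183. In Top1 cKO-Veh, Cdh12 was the lowest member at 1.58 ± 0.38 RPKM and did not overlap with Cdh6 above it at 3.19 ± 0.06. With the length of the longest transcript in place of the exon union, 25 of 40 shares moved by more than their SD, so the shares hold for this length alone.

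The partners of the cadherins were counted in the same way. Among 12 catenins and other parts of the cadherin complex, 2 were lower in WT-Topot and 0 higher, where 2.04% of all genes and 18% of those over 100 kb were called lower, and 5 were lower with the block (5% and 34.1%). Ctnna2, the neuronal alpha-catenin, measured 193, 153 and 251 CPM in WT-Veh and 4.69, 11.4 and 12.4 CPM in WT-Topot (−4.38 ± 0.30, adjusted p = 3.12e-08), and Ctnnd2, the neuronal p120-family catenin, changed by −2.19 ± 0.22 (adjusted p = 2.04e-06). Both genes are long, with spans of 1098 and 857 kb. Beta-catenin, Ctnnb1, spans 31.3 kb and was at 892, 862 and 884 CPM in WT-Veh and 1066, 1029 and 1127 CPM in WT-Topot, above every WT-Veh library without passing the test (0.29 ± 0.15, adjusted p = 0.438). After Top1 deletion 0 of the 12 passed (0.126% of all genes were lower), and with the block, where 2.95% of all genes and 11.8% of those over 100 kb were lower, Ctnna2 (−0.68), Ctnnd2 (−0.76) and Jup (plakoglobin, −0.93) were lower.
Of 12 other classical and related cadherins, 6 reached a mean of 1 CPM and 0 passed in WT-Topot or in Top1 cKO-Veh against WT-Veh. The most abundant, Cdh22, was at 31.0, 60.05 and 50.7 CPM in WT-Veh and 35.2, 32.6 and 46.7 CPM in WT-Topot (−0.30 ± 0.26, adjusted p = 0.832). Of the 6 proteases that cut cadherins, among them Adam10 and the presenilins, 0 passed in either comparison. Of 12 large atypical cadherins in the table, Fat3 (−2.95 ± 0.22, adjusted p = 6.57e-08) and the calsyntenin Clstn2 (−2.76 ± 0.24, adjusted p = 6.41e-07) were lower in WT-Topot, 2 of 12 against the same 2.04% and 18%, and 0 passed after deletion. With the block Clstn3 was also lower and Celsr2 higher in WT-Topot, where 5% of all genes were lower (34.1% of those over 100 kb) and 3.24% higher. After deletion the block called Fat3 and Clstn2 lower, against 2.95% of all genes and 11.8% of those over 100 kb. It called Fat1 and Celsr3 higher, against 2.6% of all genes.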

How the data were processed

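RNA-seq was done on 12 cortical neuron cultures in 4 groups of 3, taken with their replicate numbers from the labels. The authors filtered reads (TagDust), used TopHat to align them to mm9, removed rRNA reads and deposited raw counts over RefSeq exons per gene symbol, without normalization. The counting program, its strand setting and the software versions are not given in the sources used here, so reads of overlapping genes may be shared; annotated exons of Cdh4 and Cdh8 overlap those of another gene by 31 and 23 bp. No library repeated another of its group: the dispersion index of counts was 6.44 to 10.9.

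From the deposited counts, TMM scaling and quasi-likelihood tests were run in edgeR 4.0.16 (R 4.3.3), for each pair of groups on its 6 libraries, without a gene filter, with Benjamini-Hochberg adjustment over 23893 genes and an FDR of 0.01. The interaction was fitted on 12 libraries. SE is the log2 fold change over the square root of F. Alternatives were DESeq2 1.42.0, edgeR's exact test, other scalings, a filter on low counts, all 12 libraries in one fit, a replicate block and leaving out each library. Same-numbered libraries deviated together from their group means (r = 0.261 to 0.485 over 18 pairs, against −0.384 to −0.0494 for different numbers, 13720 genes). Taking deviations from group means makes the values for different numbers negative when those for same numbers are positive. The replicate block therefore pairs libraries by number, whereas the main tests leave the pairing out. What a number stands for is not given in the sources used here. The test of WT-Topot against WT-Veh and the interaction test, both without the block, were run on simulated counts. The simulated libraries held no replicate effect and the fit with the block was not simulated, so this check does not cover the pairing. RPKM used GENCODE vM1 exon unions, and 21013 symbols had a span. The named genes are the 10 members, Top1 and the genes of 4 fixed lists (catenins, other cadherins, proteases, large atypical cadherins) past the FDR with topotecan or deletion; Ctnnb1, Cdh22, Adam10, the single neuron markers and the genes called with the block alone were named after their values were seen. Members and lists were chosen with earlier results of these data known.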

Additional observations from a re-analysis of the deposited data

Results flagged for a closer look

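The effect of topotecan was called different between WT and Top1 cKO cells for 2 of the 10 cadherins, by the interaction term of edgeR's quasi-likelihood test. For Cdh13 the difference was 3.09 log2 units (SE 0.584, adjusted p = 0.00831), with effects of −4.34 in WT and −1.23 in Top1 cKO cells, and it was positive in 3 of 3 replicate numbers (2.27 to 4.49). For Cdh8 the difference was 1.87 (SE 0.323, adjusted p = 0.00466), with effects of −2.17 and −0.30, again positive in 3 of 3 replicate numbers (1.17 to 2.38). Over all genes 0.398% were called in this direction, and 3.32% of genes over 100 kb. The differences by replicate number come from the same libraries as the test. Both calls were lost without WT-Topot replicate 1, WT-Topot replicate 3 or Top1 cKO-Topot replicate 1, and each was lost without certain other single libraries. With the filter on low counts 1 call remained.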

How the results depend on the processing

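Each log2 fold change of a member was refitted under the alternatives. The 14 called values kept their direction in all 190 refits and their call in 167, and the 56 uncalled ones changed sign in 39 of 756 refits, none of them past the threshold. The replicate block gave 7 cadherins lower in WT-Topot, 3 lower after deletion, 2 lower with topotecan in Top1 cKO cells, 4 higher and 5 lower in Top1 cKO-Topot against WT-Topot and WT-Veh, and turned the Cdh18 interaction to −0.0169; pairing by replicate number changed no other count by over 1.5 times. After deletion DESeq2's Wald test gave 2 lower, the exact test 1 and the fit of all 12 libraries 1. With the filter on low counts 1 cadherin was higher in Top1 cKO-Topot than in WT-Topot, 2 were lower in WT-Topot set against Top1 cKO-Veh and 1 had a positive interaction; the cause was not tested. Leaving out 1 library gave 3 to 5 lower in WT-Topot, 0 to 1 lower after deletion, 0 to 1 lower with topotecan in Top1 cKO cells, 0 to 3 higher in Top1 cKO-Topot against WT-Topot, 2 to 3 lower against WT-Veh, 2 to 5 lower in WT-Topot against Top1 cKO-Veh and 0 to 2 positive interactions. The interaction count was 0 without WT-Topot replicate 1, WT-Topot replicate 3 or Top1 cKO-Topot replicate 1. Signs turned with 1 library left out for Cdh9 in WT-Topot (−0.54 to 0.13). After deletion they turned for Cdh2 (−0.16 to 0.12), Cdh9 (−0.15 to 0.61), Cdh11 (−0.15 to 0.12) and Cdh18 (−0.28 to 0.62). For Cdh9 the range was −0.97 to 0.057 with topotecan in Top1 cKO cells and, for Top1 cKO-Topot, −0.74 to 0.31 against WT-Veh. Against WT-Topot it was −0.092 to 0.35 for Cdh2, −0.51 to 0.46 for Cdh9, −0.14 to 0.27 for Cdh10, −0.30 to 0.12 for Cdh12 and −0.11 to 0.54 for Cdh18. In the interaction it was −0.060 to 0.39 for Cdh2, −0.10 to 0.62 for Cdh6, −0.75 to 0.29 for Cdh9 and −0.37 to 0.52 for Cdh18. The family shares kept their values within 1 SD in all 120 cases with 1 library left out. Depth limits Cdh13 in WT-Topot, with 5 and 6 reads in replicates 1 and 3, and Cdh6, Cdh9, Cdh12 and Cdh18, with 8 to 110 reads each per library. The study counts its replicates as cultures. Whether they came from separate litters is not given in the sources used here, so p-values concern these cultures only. The fits share variance between genes, most of all with the replicate block, which leaves few degrees of freedom. Block p-values therefore do not measure the spread of a single gene over its cultures.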
